A study of Mus musculus with 6 samples.

Results

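The genes described here encode proteins of the myelin sheath that Schwann cells wrap around axons in peripheral nerves. They are 9 genes chosen by symbol (Pmp22, Mbp, Pmp2, Mag, Mal, Cnp, Prx, Plekhb1 and Tspan2), out of 54109 genes listed in the count tables, and all 9 were found by their Ensembl IDs. Of these, 8 had enough reads to be tested among 15427 tested genes, and Mag did not. RNA was sequenced from 3 Sox10ko cultures and 3 control cultures of Msc80, a line of mouse Schwann cells kept in medium with serum. In Sox10ko cultures the transcription factor gene Sox10 was inactivated by CRISPR/Cas9 editing of a Msc80 cell clone, and control cultures are Msc80 cells with the Sox10 wt genotype. The labels call the cultures biological replicates and do not say whether the 3 Sox10ko cultures came from 1 clone or several, so loss of Sox10 and a difference between clones cannot be told apart. No nerve or axon was present in the cultures.

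Myelin forms when a Schwann cell wraps its membrane around an axon and compacts the layers. Compact myelin is held together by membrane and cytoplasmic proteins such as those encoded by Pmp22, Mbp and Pmp2, while Mag, Cnp and Prx act in the uncompacted parts that face the axon, the cytoplasmic channels and the basal lamina. Sox10, acting with the zinc finger factor Egr2, is known to activate many myelin genes in Schwann cells, and cultured lines away from axons express most of them weakly.

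The libraries held 32328618 to 41529422 counted reads in Sox10ko and 37473994 to 41834431 in control, and their scaling factors lay between 0.976 and 1.03. Sox10 itself was read at 82.2, 67.4 and 116 CPM in Sox10ko cultures, against 606, 627 and 617 CPM in control cultures. CPM are reads scaled to a common library size with TMM factors, and 1 read was worth 0.0234 to 0.0299 CPM. Schwann cell markers were lower in Sox10ko for 9 of 11 genes, the edited gene Sox10 included, where 14.7% of all tested genes were lower. The summed level of these markers, again with Sox10, was 444 to 659 CPM in Sox10ko and 5230 to 5790 CPM in control. The call of S100b among them was lost when control replicate 3 was left out (edgeR adjusted p = 0.0524). Of 10 oligodendrocyte markers, Olig2, Nkx2-2 and Ermn had 0 reads in all 6 libraries, and Aspa, which did not pass, was the only one with enough reads to be tested. The summed oligodendrocyte level, nearly all of it Aspa, was 26.6 to 49.1 CPM in Sox10ko and 52.8 to 66.1 CPM in control. The summed level of 8 fibroblast markers was 661 to 1920 CPM in Sox10ko and 532 to 776 CPM in control, that of 7 macrophage markers 9.63 to 13.3 CPM and 5.48 to 7.29 CPM, and that of 7 neuronal markers 54.5 to 70.5 CPM and 88.8 to 100 CPM. Tyrobp (macrophages) and Rbfox3 (neurons) were at 0 reads throughout, Col1a1 and Col1a2 (collagens of fibroblasts) and Cd68 (macrophages) rose, and Postn (fibroblasts) and Tubb3 (neurons) fell. For Tubb3 the adjusted p by edgeR was 0.0611 to 0.0847 without control replicate 1 or 3 or Sox10ko replicate 3. The part of these markers in the results on myelin genes was not tested.

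The set split into genes that fell, a gene that rose, and genes that did not pass the threshold. Plekhb1, Tspan2, Cnp and Pmp2 fell in Sox10ko, Pmp22 rose, and Prx, Mal and Mbp did not pass (threshold 0.05 on the p of edgeR's quasi-likelihood F test, adjusted after Benjamini-Hochberg over all tested genes). These p-values set the difference between the groups against the spread between cultures within a group. If the 3 Sox10ko cultures came from 1 clone, that spread holds no variation between Sox10ko clones. Thus 4 of 8 tested members were lower and 1 was higher, where 14.7% of all tested genes were lower, 17.3% were higher and 32% were called in either direction. In 6 of the 8 tested members the 3 Sox10ko values did not overlap the 3 control values, against 49.3% of all tested genes. Pmp2 and Cnp had reads over the low-count filter only in control, so that their direction was set by passing it. The median log2 fold change of the 8 tested members was -1.01, and that of all tested genes was 0.02. In RNA from whole cultures, fewer cells of a type and less RNA per cell cannot be told apart.

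**Figure D1:**
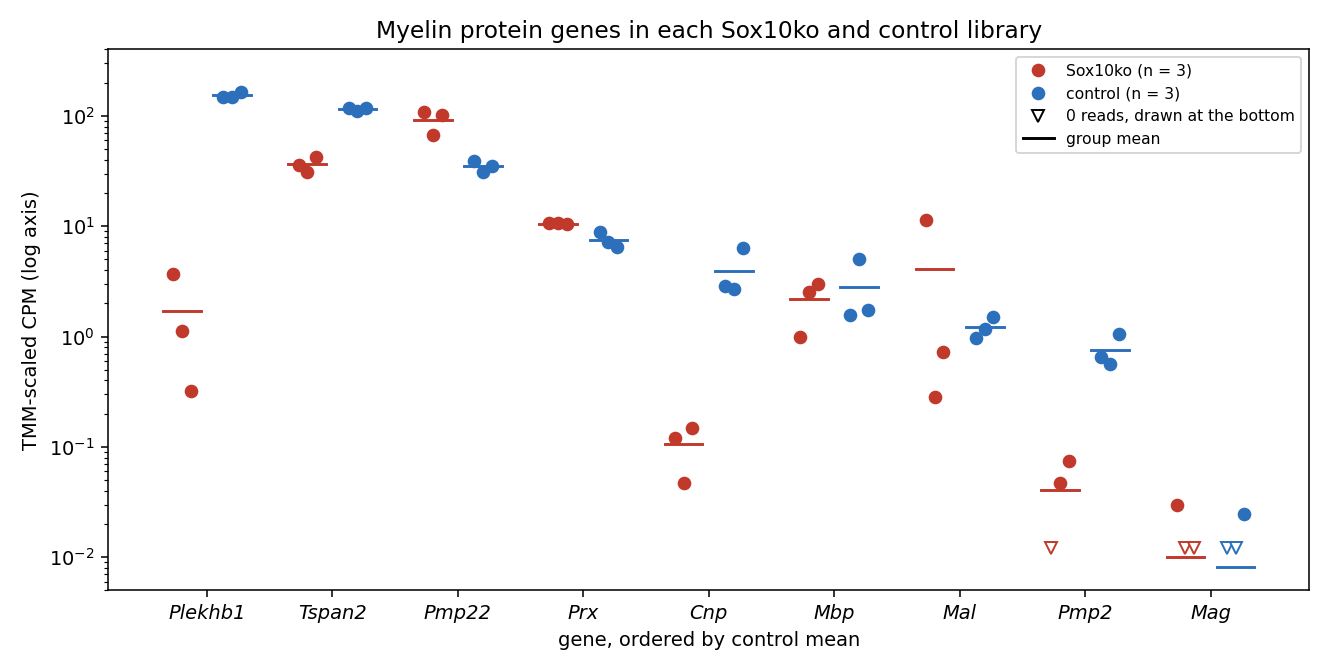
Level of each of the 9 genes in every library, in TMM-scaled CPM on a log axis, with Sox10ko in red, control in blue, lines at the group means and open triangles for libraries with 0 reads. The Sox10ko points lie below all control points for Plekhb1, Tspan2, Cnp and Pmp2, and above them for Pmp22 and Prx. The groups overlap for Mbp and Mag. For Mal, Sox10ko replicate 1 lies above all control points and replicates 2 and 3 lie below them.

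Promoter windows are printed for the members that fell and have one (Plekhb1, Tspan2, Cnp). For the member that rose, Pmp22, only the first of its 4 windows is printed. These windows were chosen because Sox10 is a DNA-binding factor and these members passed the threshold. They come from RefSeq on GRCm38.p6 and run from 250 bases before to 50 bases after an annotated start, on the strand of the gene. Capitals mark ACAAAG, the core of a SOX protein binding motif, or its reverse complement CTTTGT.
Plekhb1, first start, chr7:100662345-100662644, minus strand: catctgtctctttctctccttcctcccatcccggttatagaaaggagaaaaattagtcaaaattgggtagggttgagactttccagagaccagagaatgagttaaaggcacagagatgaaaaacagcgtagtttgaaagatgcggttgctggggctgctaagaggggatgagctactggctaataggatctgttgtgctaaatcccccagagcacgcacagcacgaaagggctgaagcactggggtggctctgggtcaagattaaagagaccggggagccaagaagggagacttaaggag
Plekhb1, second start, chr7:100656916-100657215, minus strand: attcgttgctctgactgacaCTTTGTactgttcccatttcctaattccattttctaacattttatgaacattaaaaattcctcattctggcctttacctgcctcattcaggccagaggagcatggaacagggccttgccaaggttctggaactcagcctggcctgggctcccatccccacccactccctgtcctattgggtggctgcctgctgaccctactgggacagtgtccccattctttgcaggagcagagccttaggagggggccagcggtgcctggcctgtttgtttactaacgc
Tspan2, first start, chr3:102734520-102734819, plus strand: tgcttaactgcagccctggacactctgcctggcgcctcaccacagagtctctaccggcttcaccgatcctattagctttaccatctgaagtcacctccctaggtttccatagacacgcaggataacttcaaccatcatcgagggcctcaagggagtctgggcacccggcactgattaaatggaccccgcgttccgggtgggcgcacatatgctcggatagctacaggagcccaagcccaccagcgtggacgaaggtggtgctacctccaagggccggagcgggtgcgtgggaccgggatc
Tspan2, second start, chr3:102734965-102735264, plus strand: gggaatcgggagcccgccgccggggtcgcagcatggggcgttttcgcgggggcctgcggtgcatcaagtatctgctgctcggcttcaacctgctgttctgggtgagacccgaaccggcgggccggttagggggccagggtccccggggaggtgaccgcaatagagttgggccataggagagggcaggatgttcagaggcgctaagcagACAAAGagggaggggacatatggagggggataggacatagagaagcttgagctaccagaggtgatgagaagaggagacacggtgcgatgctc
Cnp, chr11:100574689-100574988, plus strand: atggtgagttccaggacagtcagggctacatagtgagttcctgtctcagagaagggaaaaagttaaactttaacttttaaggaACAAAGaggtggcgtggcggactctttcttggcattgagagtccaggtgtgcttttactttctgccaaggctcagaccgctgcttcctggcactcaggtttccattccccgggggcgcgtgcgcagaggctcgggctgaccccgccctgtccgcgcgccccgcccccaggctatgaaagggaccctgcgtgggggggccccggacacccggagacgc
Pmp22, first start, chr11:63128732-63129031, plus strand: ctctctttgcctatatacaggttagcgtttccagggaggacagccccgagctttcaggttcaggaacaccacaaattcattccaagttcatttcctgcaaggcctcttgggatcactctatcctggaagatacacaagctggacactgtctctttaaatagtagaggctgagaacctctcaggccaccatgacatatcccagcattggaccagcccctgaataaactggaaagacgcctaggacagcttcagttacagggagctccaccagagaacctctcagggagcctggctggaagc

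The table held 14 windows for 7 of the members (Pmp22, Mag, Mal, Cnp, Prx, Plekhb1 and Tspan2). The letters ACAAAG, on either strand, occurred at position -167 of the Cnp window, at -230 of the second Plekhb1 window and at -42 of the second Tspan2 window, counted back from the start to the first base of the match. They also occurred in 2 overlapping windows of Mag, at -67 and -126, which read the same site. None of the 4 windows of Pmp22 held them, nor did those of Mal and Prx. ACAATG, a second SOX core searched on both strands, was in none of the 14 windows. Among all 32851 promoter windows in the table, 18.7% held ACAAAG, 12.6% held ACAATG and 28.6% held at least 1 of them. These shares are per window, whereas Plekhb1 and Tspan2 had 2 windows each in which a match could occur. A match of 6 letters is a description of the sequence and does not show binding.

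Plekhb1, a gene of the evectin family whose protein carries a pleckstrin homology domain and sits on intracellular membranes, had the largest fall of the set. It spans bases 100642892 to 100662414 of chromosome 7 (GRCm38, minus strand) and has 12 annotated transcripts. It was read at 3.71, 1.12 and 0.324 CPM in Sox10ko cultures, against 149.8, 147 and 166 CPM in control cultures. The Sox10ko values thus spread over 11.5 times between the lowest and the highest culture, yet each stood at 2.40% or less of the control mean, while the control cultures stayed within 1.13 times of each other. The mean was 1.72 ± 1.77 CPM in Sox10ko and 154 ± 10.2 CPM in control (SD, n = 3 each), a 92.5-fold fall (log2 fold change -6.53 ± 0.69 (SE), edgeR adjusted p = 0.000689). Sox10ko replicate 1 held 124 of the 185 Sox10ko reads, and without it the fall was 211-fold. The neighbouring gene Rab6a, 1624 bases away, fell as well, by 0.48 on the log2 scale (edgeR adjusted p = 0.00903), and Fam168a, on the other side, had a log2 fold change of -0.04 ± 0.10 (edgeR adjusted p = 0.815).

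Tspan2, a tetraspanin of the myelin membrane of oligodendrocytes and Schwann cells, kept a substantial part of its level. It spans bases 102734529 to 102801513 of chromosome 3, plus strand. It was read at 36.0, 30.9 and 42.0 CPM in Sox10ko cultures, against 117, 112 and 117 CPM in control cultures, which is 31.2%, 26.8% and 36.4% of the control mean. The 3 Sox10ko cultures stayed within 1.36 times of each other, against 1.05 times in control, and all were far below every control culture. The fall was 3.18-fold (log2 fold change -1.67 ± 0.13, edgeR adjusted p = 0.000209), and it lay between 2.98-fold and 3.47-fold with any library left out. Among the members that fell, Tspan2 was the one whose Sox10ko level stayed above the median of tested genes: 61.4% of tested genes were below it per length in Sox10ko and 85.1% in control. An antisense gene, Tspan2os, shares 88 exonic bases with it and had 0 reads in Sox10ko and 3 in control.

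Cnp encodes a cyclic nucleotide phosphodiesterase of uncompacted myelin that keeps cytoplasmic channels open. The gene spans bases 100574904 to 100591729 of chromosome 11, plus strand. Its reads numbered 4, 2 and 6 in Sox10ko cultures, against 106, 105 and 260 in control cultures. In CPM these were 0.120, 0.0469 and 0.149 in Sox10ko and 2.87, 2.69 and 6.34 in control. Every Sox10ko culture was thus near the floor of 3 reads per library (0.0703 to 0.0898 CPM in Sox10ko), and control replicate 3 stood at 2.36 times the lowest control culture. The fall was 37.1-fold (log2 fold change -5.21 ± 0.56, edgeR adjusted p = 0.000713) and ran from 26.3-fold to 48.0-fold with 1 library left out. Dnajc7, on the opposite strand, shares 154 exonic bases with Cnp and was far more abundant, at 89.3 CPM in Sox10ko and 128 CPM in control. The strand setting of the counting is not given in the sources used here.

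Pmp2, a fatty acid-binding protein of compact peripheral myelin, was at low levels even in control. It spans bases 10179851 to 10183929 of chromosome 3, minus strand. It had 0, 2 and 3 reads in Sox10ko cultures, against 24, 22 and 43 reads in control cultures. No Sox10ko culture exceeded the floor, and no control culture came close to it. Pooled over cultures this was 0.0430 CPM in Sox10ko and 0.761 CPM in control, a 17.7-fold difference with a 95% interval from counting error alone of 7.30 to 55.8 (Clopper-Pearson). The fitted fall was 16.6-fold (log2 fold change -4.05 ± 0.64, edgeR adjusted p = 0.00348), or 26.1-fold without Sox10ko replicate 3, which held 3 of the 5 reads. A gene without a name of its own, Gm37389, lies on the same strand and shares 1224 of the 1408 exonic bases of Pmp2. It had 0 reads in all libraries, and how reads in shared bases were counted is not given in the sources used here, so Pmp2 levels may be understated in both groups.

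Pmp22 was the member that rose. It encodes a glycoprotein of compact myelin whose gene dosage is known to matter in human inherited neuropathies, and it spans bases 63128982 to 63159547 of chromosome 11, plus strand. It was read at 108, 67.7 and 102 CPM in Sox10ko cultures, against 38.9, 31.1 and 35.4 CPM in control cultures. The lowest Sox10ko culture, replicate 2, still stood at 193% of the control mean, and the others at 307% and 289%. The mean was 92.4 ± 21.6 CPM in Sox10ko and 35.1 ± 3.87 CPM in control (SD, n = 3 each), a 2.63-fold rise (log2 fold change 1.40 ± 0.19, edgeR adjusted p = 0.00184). With 1 library left out the rise was between 2.40-fold and 2.96-fold, and it was called each time. Counts per gene do not show which of the annotated starts the reads came from. The nearest coding genes, Tekt3 and Hs3st3b1, had 5 and 0 reads over all 6 libraries.

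Prx encodes periaxin, a scaffold that links the Schwann cell cortex to the basal lamina through the dystroglycan complex, and spans bases 27499324 to 27520214 of chromosome 7, plus strand. It was read at 10.6, 10.6 and 10.5 CPM in Sox10ko cultures, against 8.86, 7.22 and 6.54 CPM in control cultures. The Sox10ko values were nearly identical to each other and all above the control values. The difference did not pass (log2 fold change 0.49 ± 0.16, edgeR adjusted p = 0.0603, unadjusted p = 0.0207), and the 95% interval of the log2 fold change ran from 0.10 to 0.87. DESeq2 gave an adjusted p of 0.0246 for it, and over all 13 alternatives the adjusted p ran from 0.0246 to 0.220. An antisense gene, Gm15541, shares 300 exonic bases with Prx and had 55 reads in Sox10ko and 23 in control.

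Mal, a small proteolipid of lipid-rich membrane domains that is found in myelin and in the apical membrane of epithelia, was carried by 1 culture. It spans bases 127633226 to 127656695 of chromosome 2, minus strand. It was read at 11.4, 0.281 and 0.722 CPM in Sox10ko cultures, against 0.976, 1.18 and 1.51 CPM in control cultures. Sox10ko replicate 1 was thus above every control culture, and Sox10ko replicates 2 and 3 were below every control culture. The log2 fold change was 1.75 ± 1.19 with all libraries (edgeR adjusted p = 0.303, 95% interval -1.04 to 4.53), and -1.29 without Sox10ko replicate 1 (edgeR adjusted p = 0.0888). Replicate 1 held 381 of the 422 Sox10ko reads of Mal. In the same culture Plekhb1 was also at its highest Sox10ko level, and Mbp at its lowest.

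Mbp, whose protein glues the cytoplasmic faces of the membrane together in compact myelin, was low and uneven. The gene spans bases 82475146 to 82585637 of chromosome 18, plus strand, and has 16 annotated transcripts, which gene counts do not separate. It was read at 0.988, 2.56 and 2.99 CPM in Sox10ko cultures, against 1.57, 5.09 and 1.76 CPM in control cultures. The groups overlapped, control replicate 2 held 199 of the 329 control reads, and the highest control culture was 3.24 times the lowest. The log2 fold change was -0.36 ± 0.57 (edgeR adjusted p = 0.669, 95% interval -1.70 to 0.98), and it was 0.37 without control replicate 2 (edgeR adjusted p = 0.618). An interval of this width does not show that the level was equal in both groups.

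Mag, a sialic acid-binding adhesion receptor on the inner face of myelin, was not detectable as a difference at this depth. It had 1 read in Sox10ko replicate 1, 1 read in control replicate 3 and 0 in the other libraries. Both groups lay under the floor of 3 reads per library, which is at most 0.0898 CPM in Sox10ko and 0.0813 CPM in control. No fold is given for it.

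**Figure D2:**
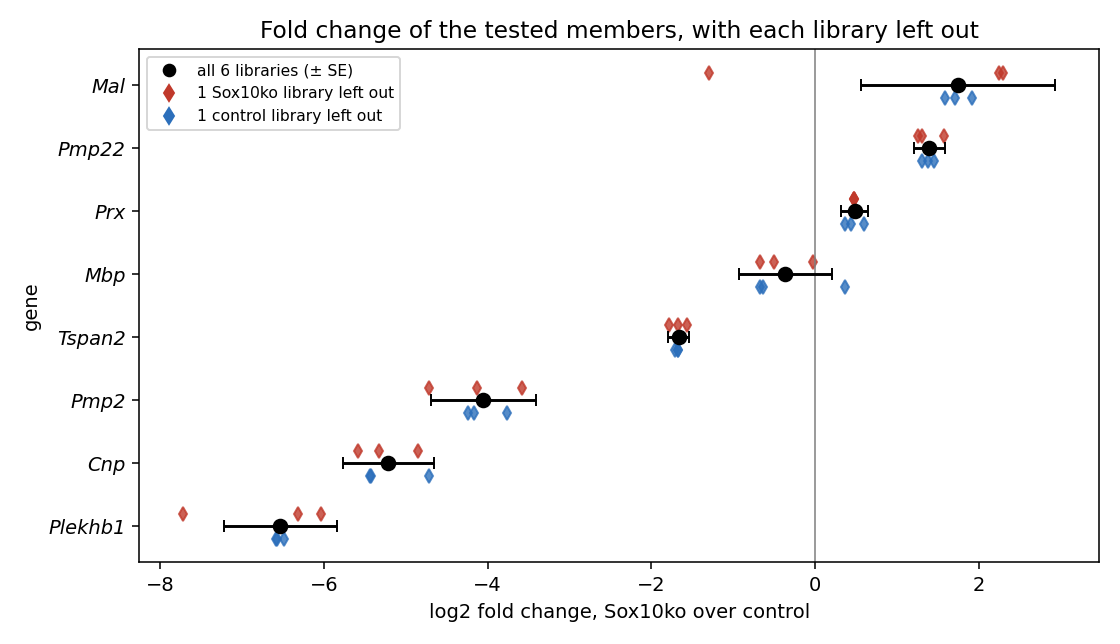
Log2 fold change of the 8 tested members, Sox10ko over control, as black points with their SE, and the same fit with 1 Sox10ko library (red diamonds) or 1 control library (blue diamonds) left out. Plekhb1, Cnp, Pmp2, Tspan2 and Pmp22 keep their side of 0 throughout, while Mal drops to -1.29 without Sox10ko replicate 1 and Mbp changes sign without control replicate 2.

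The cultures of a group differed from each other more for some members than for most genes. On the scale of log2(CPM + 0.5), the median SD between cultures over tested genes that averaged 1 CPM or more was 0.191 in Sox10ko and 0.129 in control. Mal had an SD of 2.11 in Sox10ko, larger than 99.6% of these genes, and 0.225 in control. Plekhb1 had 1.18 in Sox10ko, larger than 98.3% of these genes, and 0.0937 in control. Mbp was uneven in both groups, with 0.661 in Sox10ko and 0.794 in control. Prx was among the steadiest genes in Sox10ko, with an SD of 0.0105 there and 0.210 in control.

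Comparing levels between genes calls for a correction for length, here CPM per kb of exonic sequence, counting each base of the annotated exons once. In Sox10ko the order was led by Pmp22 at 39.2 ± 9.18 CPM per kb, then Tspan2 at 7.64 ± 1.17 and Prx at 1.89 ± 0.0143 (SD, n = 3). In control it was led by Plekhb1 at 41.6 ± 2.76 CPM per kb, then Tspan2 at 24.3 ± 0.647, Pmp22 at 14.9 ± 1.64 and Prx at 1.35 ± 0.214. Pmp22 in Sox10ko was about as abundant per length as Plekhb1 in control. The leading genes were set apart from the next in the order without overlap between libraries, down to Tspan2 in Sox10ko and down to Pmp22 in control.

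Below them the order was resolved only in part. In Sox10ko, Prx, Mal (1.49 ± 2.27 CPM per kb), Plekhb1 (0.463 ± 0.477) and Mbp (0.257 ± 0.124) each overlapped the next of these 4. Every library of Mbp stood above those of Cnp (0.0289 ± 0.0145) and Pmp2 (0.0288 ± 0.0268), which overlapped each other. In control, Prx, Cnp (1.09 ± 0.566 CPM per kb), Pmp2 (0.536 ± 0.184), Mal (0.440 ± 0.0977) and Mbp (0.332 ± 0.234) each overlapped the next of these 5, and every library of Mbp stood above those of Mag. The median of all tested genes was 4.70 CPM per kb in Sox10ko and 4.58 in control, so that in Sox10ko Pmp22 and Tspan2 were the members above it, and in control Plekhb1, Tspan2 and Pmp22. For Plekhb1, 18.4% of tested genes had a lower level per length in Sox10ko and 92.0% in control. For Pmp22 these shares were 91.7% in Sox10ko and 75.9% in control.

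**Figure D3:**
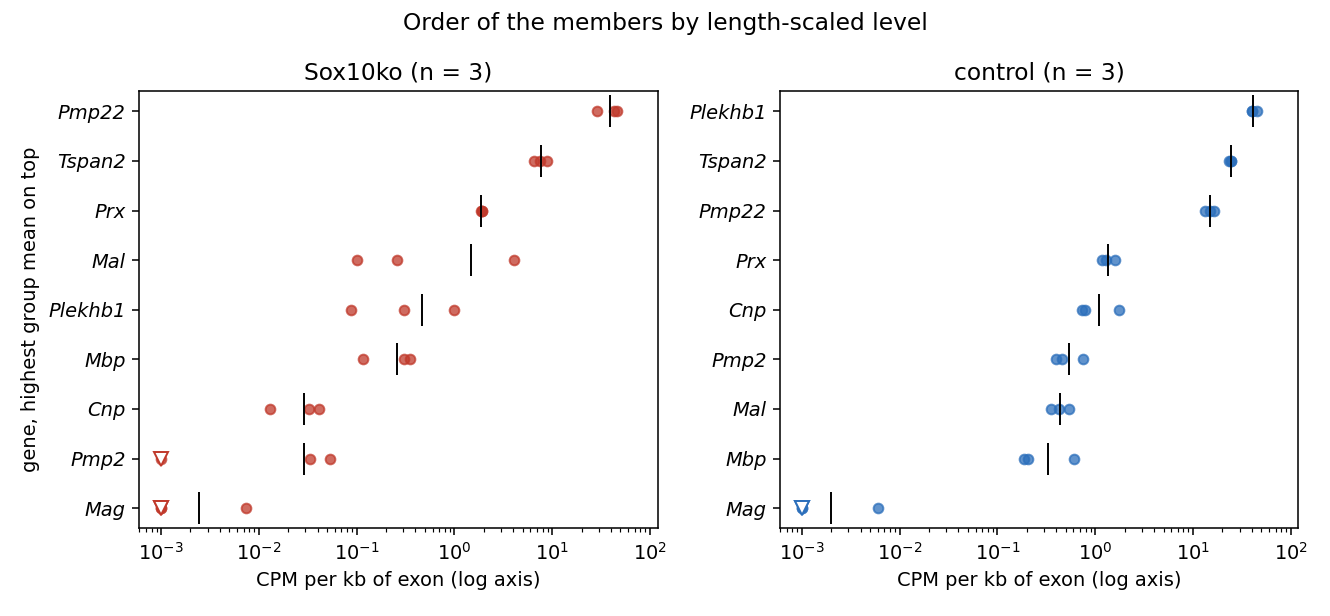
CPM per kb of exon on a log axis for the 9 members, in the order of their group means, with Sox10ko on the left and control on the right, dots for libraries, black ticks for means and open triangles for 0 reads. Pmp22 and Tspan2 lead in Sox10ko, and Plekhb1, Tspan2 and Pmp22 lead in control, while neighbours in the middle ranks overlap.

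Added together, the reads of the 9 genes came to 171, 113 and 158 CPM in Sox10ko cultures, against 321, 307 and 336 CPM in control cultures. The sum was lower in every Sox10ko culture, and its make-up was different. Plekhb1 and Tspan2 together gave 23.3%, 28.3% and 26.7% of it in Sox10ko, against 83.2%, 84.4% and 84.3% in control. Pmp22 gave 63.2%, 59.7% and 64.2% in Sox10ko, against 12.1%, 10.1% and 10.5% in control. These shares are of reads and are not corrected for length.

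**Figure D4:**
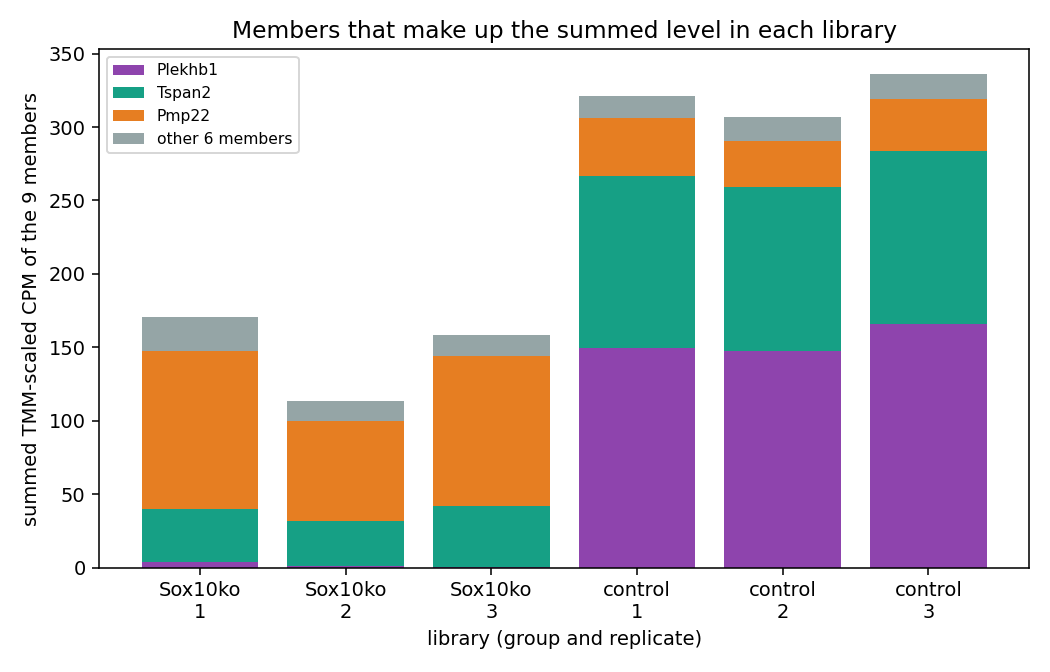
Summed level of the 9 members in each library, in TMM-scaled CPM without correction for length, with the parts of Plekhb1, Tspan2, Pmp22 and the other 6 members stacked. Pmp22 makes up most of each Sox10ko bar, and Plekhb1 with Tspan2 makes up most of each control bar.

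Relatives of the members moved in both directions. Of 28 genes listed from the same protein families, 18 were tested, 2 were higher and 4 lower in Sox10ko. This is a share of 33.3% called beside 32% of all tested genes, and the median log2 fold change of the 18 was 0.00. Cmtm5, among the 4 lower, passed the low-count filter only through control, so that its direction was set by passing it. Next to Pmp22, the related gene Emp1 fell (473, 578 and 506 CPM in Sox10ko against 848, 969 and 843 CPM in control; edgeR adjusted p = 0.00283). Emp3 had a log2 fold change of 0.01 ± 0.09, and Emp2 stood at 27.7, 31.9 and 201 CPM in Sox10ko and at 34.4, 6.58 and 30.9 CPM in control, with a single high Sox10ko culture and no call (edgeR adjusted p = 0.156). Next to Pmp2, the fatty acid-binding protein gene Fabp5 fell 3.20-fold, to 43.4 ± 5.88 CPM in Sox10ko against 139 ± 18.2 CPM in control (SD, n = 3 each). Fabp7 had a log2 fold change of 0.87 ± 0.83 (edgeR adjusted p = 0.467). Fabp3 and Fabp4 were not tested, with 28 and 64 reads in Sox10ko against 16 and 4 in control. Next to Tspan2, the tetraspanin gene Tspan15 fell 2.50-fold and Cd9 rose 1.73-fold, while Cd63, Cd81, Cd151, Tspan3, Tspan4 and Tspan6 did not pass. Next to Mal, Cmtm5, a gene of the same superfamily of membrane proteins, had 0 reads in Sox10ko and 483 in control. This was at least 160-fold lower against a floor of 3 reads over the group. The bound was at least 101-fold without Sox10ko replicate 2 and 105-fold without replicate 3. Cmtm3 and Cmtm6 did not pass. Among relatives of Mal that were not tested, Mal2 had 29 reads in Sox10ko and 0 in control, Mall 1 and 0, and Pllp 8 and 21. Ahnak, a giant scaffold protein related to periaxin, rose 2.57-fold, and Plekhb2, the relative of Plekhb1, had a log2 fold change of 0.80 ± 0.35 (edgeR adjusted p = 0.118).

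**Figure D5:**
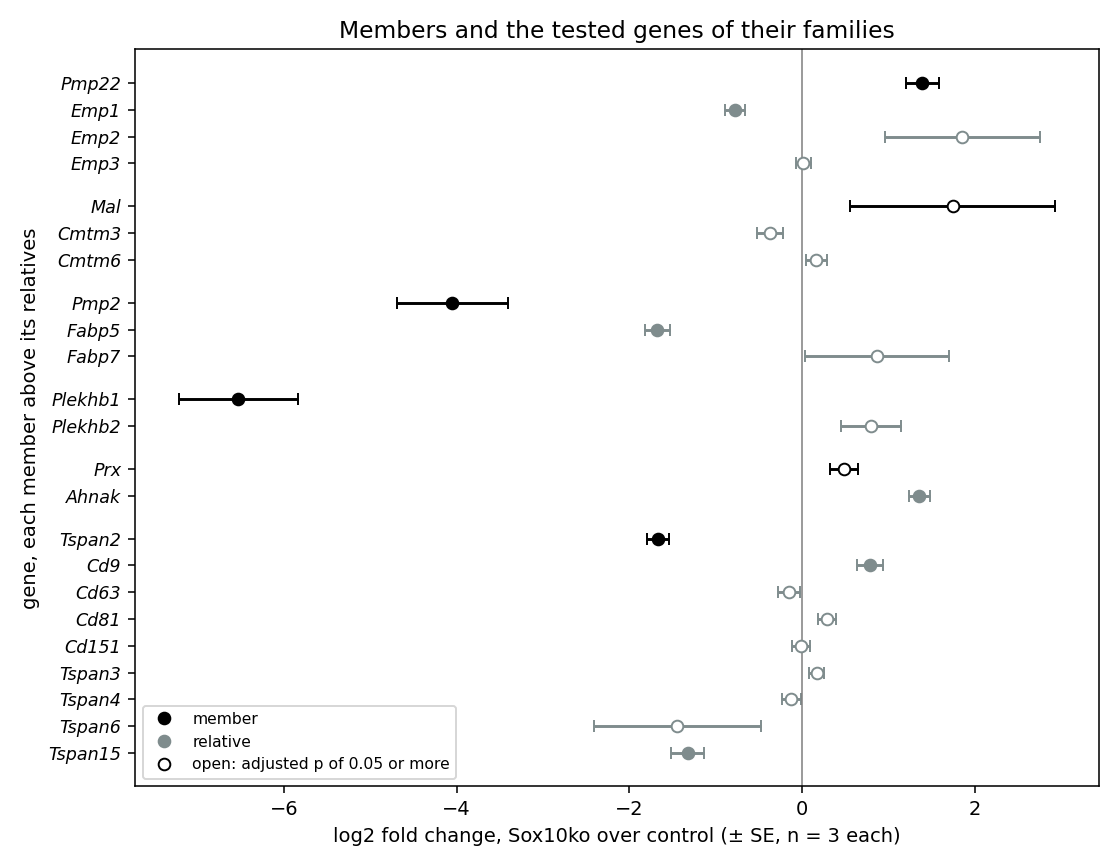
Log2 fold change (± SE, n = 3 each), Sox10ko over control, of the tested members with listed relatives, each above its relatives, with filled points for genes that passed and open points for those that did not. The log2 fold change of Pmp22 is higher than those of Emp1 and Emp3 and lower than that of Emp2, which has no call. Plekhb1 and Plekhb2 lie on opposite sides of 0, Plekhb2 without a call. Cmtm5, with 0 reads in Sox10ko, is not drawn.

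Other proteins of the Schwann cell and myelin membrane moved in both directions. Of 15 tested genes in that list, 5 were lower in Sox10ko and 2 were higher, with a median log2 fold change of -0.42. This is 46.7% called, beside 32% of all tested genes. The number lower was 8 with DESeq2, 9 with no low-count filter, and 5 to 7 with 1 library left out. Gjc3 (a connexin) fell to 0.212 ± 0.103 CPM in Sox10ko against 164 ± 52.3 CPM in control, and Kcna1 (a potassium channel), which passed the filter only through control, to 0.0444 ± 0.0188 CPM against 23.6 ± 8.56 CPM. Myo1d, a myosin, rose 29.5-fold, or 19.1-fold without Sox10ko replicate 1. Ndrg1, a cytoplasmic protein of Schwann cells that is mutated in a demyelinating neuropathy, rose 4.63-fold. Leaving out control replicate 3 ended the call of Ndrg1 (edgeR adjusted p = 0.0506), which left 1 gene of the list higher.

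Several known partners of periaxin and their associates changed. Of 14 genes of the dystroglycan complex and related cortical linkers, 6 were lower in Sox10ko and 2 were higher, with a median log2 fold change of -0.18. The share called was 57.1%, beside 32% of all tested genes. Dmd (dystrophin) was read at 20.5, 22.5 and 27.1 CPM in Sox10ko cultures against 253, 469 and 383 CPM in control cultures, a 15.7-fold fall. Dtna (dystrobrevin) fell 3.05-fold and Itga6 (an integrin of the basal lamina contact) 4.75-fold. Msn (moesin) rose 1.37-fold, but was not called when replicate 2 or 3 of either group was left out (edgeR adjusted p from 0.0631 to 0.131), which left 1 gene of the list higher each time. Drp2, the direct partner of periaxin, had a log2 fold change of 0.33 ± 0.30 (edgeR adjusted p = 0.449).

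Genes listed for trafficking and signalling, most of them mutated in Charcot-Marie-Tooth neuropathies, changed in both directions. The list also holds the trafficking gene Rab11a and the transcription factor gene Egr2, which is counted among the regulators as well. Neither of these was called. Of 13 tested, 4 were lower in Sox10ko and 3 were higher, with a median log2 fold change of -0.08. That makes 53.8% called, where 32% of all tested genes were. Fgd4, a guanine nucleotide exchange factor, was 15.6-fold lower, Sh3tc2 (an endosomal adaptor) 1.42-fold lower and Gnb4 (a G protein subunit) 1.78-fold lower. Dnm2 (dynamin) was 1.48-fold higher. Gdap1, a mitochondrial protein, had 97 reads in Sox10ko and 12 in control and passed the filter only through Sox10ko. Its rise was 8.05-fold, or 19.4-fold if control replicate 3 is left out, and it was not called if control replicate 2 is left out (adjusted p by edgeR 0.0567). Fig4, a phosphoinositide phosphatase, was 1.32-fold higher, and was not called without control replicate 1 or 3 or Sox10ko replicate 1 or 2 (adjusted p by edgeR from 0.0746 to 0.130).

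In myelin lipid metabolism, 5 of 13 tested genes were higher in Sox10ko and 3 were lower, with a median log2 fold change of -0.05. The 61.5% called compare with 32% of all tested genes. The counts depended on single libraries: without control replicate 3, 2 genes were higher and 1 was lower, and without control replicate 1, 3 were higher and 2 lower. Elovl7, a fatty acid elongase that passed the filter only through Sox10ko, was 4.47-fold higher, and Smpd1 (a sphingomyelinase) 1.80-fold. Cers2, the very long chain ceramide synthase, was 1.42-fold lower, Sptlc2 (a serine palmitoyltransferase subunit) 1.40-fold and Elovl1 1.28-fold. With 1 library left out, the calls of Smpd1 (control replicate 1 or 3), Sptlc2 (control replicate 2 or 3) and Elovl1 (control replicate 1 or 3, Sox10ko replicate 2 or 3) ended, at adjusted p by edgeR from 0.0506 to 0.122. Ugt8a, the galactosyltransferase of myelin galactolipids, had 1 read in Sox10ko and 1 in control.

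Among 14 tested regulators of the myelin genes, 6 were lower in Sox10ko, Sox10 included, and 2 were higher, with a median log2 fold change of -0.34. Of these 14, 57.1% were called, beside 32% of all tested genes. Zeb2, a zinc finger repressor needed for myelination, fell 2.29-fold and Hdac2, a histone deacetylase, 1.42-fold. Nab2, which binds Egr factors and represses their targets, rose 2.27-fold. Egr1, an immediate early factor, rose 2.57-fold, with overlapping groups and a call that ended when any library but Sox10ko replicate 1 was left out (adjusted p by edgeR from 0.0630 to 0.107), which left 1 regulator higher. Egr2 was read at 1.29, 2.602 and 2.89 CPM in Sox10ko cultures, against 4.23, 2.77 and 3.20 CPM in control cultures. Its groups overlapped and it had no call (adjusted p by edgeR 0.239). The POU factor gene Pou3f1 had 1 read in Sox10ko and 0 in control, and Pou3f2 had 0 in both groups.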

How the data were processed

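The authors deposited 1 table per library of read counts per Ensembl gene ID, whole numbers with a different total in each library, from 3 Sox10ko and 3 control cultures. Libraries came from a stranded mRNA kit, per the labels' protocols. STAR 2.6.0c, HTSeq and DESeq2 are named with build mm10 (GRCm38) per the submitters' processing notes, without their roles. Which annotation release, strand setting and filters applied is not given in the sources used here. Counting may have lost or misplaced reads on near-identical or overlapping genes.

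Symbols matched 54042 of 54109 IDs. Coordinates and exon lengths came from GENCODE M21 (GRCm38). The filter was filterByExpr in edgeR 4.0.16 (10 reads at the median depth, 0.249 CPM, in 3 libraries). Counts were scaled with TMM and tested for genotype with its quasi-likelihood F test in R 4.3.3, two-sided, with Benjamini-Hochberg adjustment over 15427 genes, all 6 libraries and no covariate. The SE is the log2 fold change divided by the root of F. Replicates of a group all differed beyond sampling noise (chi-square per degree of freedom of 24.7 or more). Without molecular identifiers, reads are not independent molecules, so counting intervals and floors cover counting error only.

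The members and gene lists were chosen with earlier results of these data known, and no list has a test of its own. Named in the text are all members, Sox10, Egr2, markers, and in each list up to 3 called genes per direction by adjusted p, except a few genes that are not reported here. Further relatives, partners and myelin genes (Emp1, Emp2, Emp3, Plekhb2, Drp2 and others), and genes that overlap or neighbour a member, are named for their relation to it. Alternatives were DESeq2 1.42.0 or its size factors, library size alone, limma-voom (limma 3.58.1), no low-count filter, a mean of at least 5 CPM, a replicate block, each library left out, and the longest transcript as gene length.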

Additional observations from a re-analysis of the deposited data

How the results depend on the processing

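The 5 called members kept their direction in all alternatives that tested them, and none lost its call. Prx also passed with library size alone, with a mean of at least 5 CPM, with DESeq2 and with limma-voom, so that 2 members were then called higher. With a mean of at least 5 CPM, 2 members were called lower, because Pmp2 and Cnp lie under that mean. The log2 fold change of Mbp was between -0.67 and 0.37 with 1 library left out (0.37 without control replicate 2), and that of Mal between -1.29 (without Sox10ko replicate 1) and 2.30. For Mal it was 0.01 with limma-voom and 0.05 with a replicate block. Neither gene passed in any alternative. With 1 library left out, the members called stayed at 1 higher and 4 lower, genes called in the other lists ran from 9 to 16 higher and from 24 to 30 lower, and all genes called ran from 2869 (without control replicate 3) to 4681 against 4939 with all libraries. The labels do not say whether the replicate numbers pair the cultures. The deviations of same-numbered libraries correlated at -0.158, -0.078 and 0.034, and those of differently numbered libraries at -0.082 to 0.143. With groups of 3 these values cannot decide whether cultures were paired. With a replicate block 3537 genes and the same number of members were called. With the longest transcript as gene length, Mbp in control had 0.585 CPM per kb, above Pmp2 and Mal, with overlap. Depth limits Mag, Pmp2 and Cnp, which had 6 reads or fewer in each Sox10ko library. Groups of 3 allow no look for outlying cultures beyond leaving each out.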
